A study of Rattus norvegicus with 9 samples.

Results

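Exosomes of rat peritoneal macrophages that received astragaloside IV and then lipopolysaccharide (LPS) were compared with exosomes of vehicle cultures, using 6 of the 9 small RNA libraries of the series. The 6 libraries were chosen by their titles, 3 of the combined treatment (LPS+AS-IV) and 3 of Control. The cells were primary macrophages washed from the peritoneal cavity of untreated rat and kept in RPMI medium with 10% fetal bovine serum. Control cultures received 0.1% DMSO (1 µl/ml) for 24 h. In LPS+AS-IV, 150 µM astragaloside IV (a triterpenoid saponin from Astragalus) in DMSO was given for 24 h, and then LPS, also dissolved in DMSO, at 100 ng/ml for 6 h. The amount of DMSO is stated for Control only. The remaining 3 libraries came from cultures with LPS alone and entered the fits to share the estimate of the spread. Their values are given beside some results, and they are set against the same Control libraries. Whether the replicates are separate animals or cultures is not stated in the labels, so the spread that p-values rest on may be technical.

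Exosomes are small membrane vesicles that cells release, and they carry RNA. A microRNA (miRNA) pairs with messenger RNAs mainly through its seed, the bases from position 2 to 8, and represses them. LPS, a component of the outer membrane of Gram-negative bacteria, activates macrophages through Toll-like receptor 4, and miR-155-5p and miR-146a-5p are well-known parts of that response. Exosomal RNA also holds pieces of longer RNAs, among them 5′ fragments of tRNAs, fragments of Y RNAs (small RNAs bound by the Ro protein) and fragments of the small nuclear RNAs (snRNAs) that act in splicing.

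The miRNA results turn on the molecules printed here, with the seed in capitals. The mature sequences are those of RefSeq (build GRCr8), which had an entry for 47 of the 55 miRNAs named or checked as markers.

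let-7a-5p: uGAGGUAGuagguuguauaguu
miR-3596a: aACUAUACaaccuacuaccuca
miR-181a-5p: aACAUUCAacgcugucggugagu
miR-181b-5p: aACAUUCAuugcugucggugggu
miR-181c-5p: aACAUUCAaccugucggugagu
miR-122-5p: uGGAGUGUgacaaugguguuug
miR-127-3p: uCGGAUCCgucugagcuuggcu
miR-411-5p: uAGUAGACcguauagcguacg

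let-7a-5p and miR-3596a are shown because the 2 miRNAs called by the test were these names. In RefSeq, miR-3596a is the reverse complement of let-7a-5p over its 22 bases, from a gene on the opposite strand of a let-7a gene. The 3 members of the miR-181 family share the seed ACAUUCA. The other 3 sequences belong to miRNAs whose libraries did not overlap between the groups, and their seeds differ from each other.

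The fragment results turn on tags, the distinct read sequences of the libraries. The most abundant tag of each group of tags is printed, with the first 20 bases that define the group in capitals for the tRNA fragments, and the first 14 for the Y RNA fragment. For U1 snRNA, capitals mark the 18 bases shared by its leading tags.

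tRNA-Val fragment: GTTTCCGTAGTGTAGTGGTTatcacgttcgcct
tRNA-Gly fragment: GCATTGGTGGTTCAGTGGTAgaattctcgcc
tRNA-Asp fragment: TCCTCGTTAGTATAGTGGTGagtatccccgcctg
Y RNA fragment: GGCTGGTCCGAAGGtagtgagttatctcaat
U1 snRNA fragment: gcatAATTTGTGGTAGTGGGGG

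The tRNA names are given from the known 5′ ends of these tRNAs. The deposited files named the tags mainly as piRNAs, for example rno_piR_005901 for the tRNA-Val fragment. Such fragments are alike across mammals, and the medium held serum of another species. Whether these reads came from rat cells or from serum was not tested.

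The 6 libraries held between 5449156 and 9527483 assigned reads. Reads in the deposited miRNA table numbered 42178, 30861 and 75528 in Control, and 15426, 68845 and 546599 in LPS+AS-IV. LPS+AS-IV 3 stood apart from the other 5 libraries of the comparison. The 10 tRNA starts most abundant in Control held 0.109% of its assigned reads, against 38.2% to 44.2% in LPS+AS-IV 1 and 2 and 31.95% to 56.2% in Control. LPS 3 had a like share, 0.0922%. A second deposited count per miRNA came to 53.7% of the reads in LPS+AS-IV 3, against 87.6% to 94.0% in the other 5 libraries. Families named as bacterial ribosomal RNA held 13.5% to 21.5% of assigned reads across the 6 libraries, and their part in the results was not tested. Results that rest on LPS+AS-IV 3 are given with and without it.

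In the miRNA table, 94 of 201 miRNAs passed the filter on low counts, and the edgeR quasi-likelihood test called 2 of them at an adjusted p under 0.05 (2.13%). These were let-7a-5p, which was higher in LPS+AS-IV, and miR-3596a, which was lower. Both calls came mainly from the naming of a single tag. The table listed let-7a-5p at 0 reads in the 3 Control libraries and at 1029, 6717 and 42928 reads in LPS+AS-IV. It listed miR-3596a at 2873, 2831 and 6742 reads in Control against 0, 9 and 10 reads in LPS+AS-IV.

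The tag identical to RefSeq let-7a-5p was named miR-3596a in each Control library and let-7a-5p in each LPS+AS-IV library. Its reads were 2873, 2831 and 6617 in Control against 1009, 6665 and 42928 in LPS+AS-IV. No tag in the 9 libraries equalled the RefSeq sequence of miR-3596a. A second tag, let-7a-5p with 1 added base, was named miR-3596a in Control 3 and let-7a-5p in LPS+AS-IV 1 and 2. That tag had 0, 0 and 125 reads in Control against 20, 52 and 0 in LPS+AS-IV. Under 1 name per tag it counted as miR-3596a. Counted under 1 name, let-7a-5p held 8.22% ± 1.23 of miRNA reads in Control against 8.03% ± 1.58 in LPS+AS-IV (mean ± SD, n = 3 each). The log2 fold change was then 0.05 (SE 0.26, adjusted p = 0.964 by edgeR), and the libraries of the groups overlapped.

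With 1 name per tag, edgeR called 0 of 94 miRNAs (0%). At an unadjusted p under 0.05 there was 1 miRNA higher (1.06%) and 1 lower (1.06%), and DESeq2 called 0. By deposited names, the same threshold gave 2 higher (2.13%) and 1 lower (1.06%). Of 504 mature tag sequences in the 6 libraries, 16 had more than 1 assignment, and 8 of those had at least 100 reads.

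**Figure D1:**
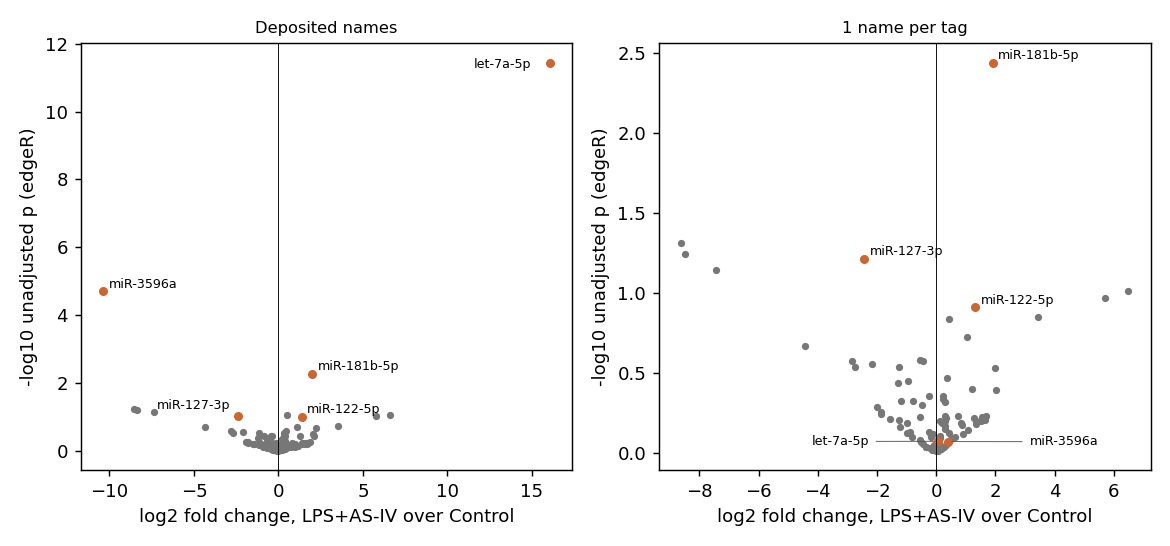
Each point is 1 tested miRNA, with its log2 fold change (LPS+AS-IV over Control) on the x axis and the -log10 unadjusted p of edgeR on the y axis, for the deposited names (left) and for 1 name per tag (right). let-7a-5p and miR-3596a stand far from the rest on the left and near 0 on the right, at 0.05 and 0.41. On the right, the reads of miR-3596a include the tag of let-7a-5p with 1 added base. The position of a miRNA at 0 in a whole group, such as let-7a-5p on the left, is a fitted value and no measure of size.

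The leading miRNA other than these was miR-181b-5p, a member of the miR-181 family, which is abundant in lymphoid cells. Its reads were 134, 195 and 419 in Control against 252, 805 and 13762 in LPS+AS-IV. As CPM (reads scaled to 1000000 miRNA reads per library, with TMM factors), its levels were 2893, 5824 and 5631 in Control against 18175, 12272 and 27492 in LPS+AS-IV. Each LPS+AS-IV library was higher than each Control library. It did not pass, with a log2 fold change of 2.01 (SE 0.61, unadjusted p = 0.00534, adjusted p = 0.167 by edgeR). Without LPS+AS-IV 2 it passed, at an adjusted p of 0.0388 by deposited names (log2 fold change 2.32) and 0.0191 with 1 name per tag (2.31). Over the other alternatives that changed a single choice, the adjusted p ranged from 0.0503 with DESeq2 to 0.996 with tags of 1 mismatch added, where the log2 fold change was 1.16. Without LPS+AS-IV 3 it was 1.58 (adjusted p = 0.698). Scaled to 1000000 assigned reads of all classes (RPM), miR-181b-5p was at 18.6, 35.8 and 50.9 in Control against 26.4, 88.5 and 2054 in LPS+AS-IV, and the groups overlapped. In the LPS libraries its CPM was 3526, 11316 and 13051.

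Its relatives with the same seed showed other values. miR-181a-5p, the most abundant miRNA of Control by deposited names, had CPM of 86704, 111378 and 107015 in Control against 90369, 70489 and 164004 in LPS+AS-IV. The groups overlapped, with a log2 fold change of 0.09 (SE 0.30, adjusted p = 0.981 by edgeR), which was below 0 under library totals (-0.10) and with 1 name per tag (-0.01). miR-181c-5p was rare, at 76, 17 and 1 reads in Control against 0, 39 and 0 in LPS+AS-IV.

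Groups that did not overlap were found for 5 miRNAs higher in LPS+AS-IV (5.32% of 94) and 5 lower (5.32%) in the table. Under 1 name per tag there were 3 higher (3.19%) and 5 lower (5.32%). Of the 20 ways to split 6 libraries into 3 and 3, 1 gives such a separation in each direction, so these shares are no result by themselves. Scaled as RPM with 1 name per tag, 0 of 93 tested mature miRNAs did not overlap and were higher, and 7 were lower. In the table, the higher ones were let-7a-5p, miR-122-5p, miR-181b-5p, miR-26b-5p and miR-27a-3p. The lower ones were miR-3596a, miR-127-3p, miR-151-5p, miR-23b-3p and miR-411-5p. miR-26b-5p and miR-27a-3p were singled out after their values were seen.

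miR-122-5p, the main miRNA of hepatocytes and also found in serum, had CPM of 3238, 1434 and 1451 in Control against 6203, 5747 and 4099 in LPS+AS-IV. The log2 fold change was 1.39 (SE 0.78, unadjusted p = 0.0978, adjusted p = 0.836 by edgeR). It rested on 150, 48 and 108 reads in Control against 86, 377 and 2052 in LPS+AS-IV. The LPS libraries were at 8816, 3561 and 5724, also above Control. The other tested member of the liver and serum list, miR-192-5p, had 0, 38 and 0 reads in Control against 0, 0 and 488 in LPS+AS-IV.

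miR-127-3p and miR-411-5p come from the imprinted Dlk1-Dio3 region, whose miRNAs are expressed from the maternal allele. miR-127-3p had 552, 247 and 630 reads in Control against 22, 247 and 3 in LPS+AS-IV, which gave CPM of 11918, 7377 and 8467 against 1587, 3765 and 5.99. Every LPS+AS-IV library lay below every Control library, and LPS+AS-IV 3 was the lowest. That library had the most miRNA reads but the fewest distinct tags of all classes (48279) among the 6 libraries. The log2 fold change was -2.37 (SE 1.32, unadjusted p = 0.0943, adjusted p = 0.836 by edgeR). Without LPS+AS-IV 3 it was -1.88 (unadjusted p = 0.0459, adjusted p = 0.698 by edgeR). In the LPS libraries the CPM was 1115, 1626 and 1491.

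miR-411-5p had 107, 62 and 315 reads in Control against 8, 49 and 1 in LPS+AS-IV, with a log2 fold change of -2.67 (SE 2.44, adjusted p = 0.981 by edgeR). It had 9, 0 and 0 reads in the LPS libraries. Of 39 members listed for this region, 12 were detected and 4 tested, and 0 passed. The median log2 fold change of the 4 was -2.08, against 0.21 over all 94 tested. The summed CPM of the list was 10872 to 15372 in Control against 3138 to 4544 in LPS+AS-IV. In Control the sum rested mainly on miR-127-3p, at 7377 to 11918 CPM. In LPS+AS-IV 3 its largest part was miR-323-3p, at 2565 CPM. The other tested members were low, with 0, 20 and 95 reads in Control against 8, 0 and 0 in LPS+AS-IV for miR-379-5p. miR-323-3p had 0, 0 and 63 reads in Control against 1, 1 and 1284 in LPS+AS-IV, and its log2 fold change of 1.64 was -2.77 without LPS+AS-IV 3.

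The other miRNAs that did not overlap rested on few reads. miR-151-5p had 142, 76 and 200 reads in Control against 17, 42 and 5 in LPS+AS-IV (log2 fold change -2.11, SE 1.85). miR-23b-3p had 101, 47 and 142 against 11, 1 and 2 (log2 fold change -2.82, SE 2.39). miR-26b-5p had 1, 23 and 66 against 13, 290 and 782, and miR-27a-3p had 82, 30 and 174 against 33, 359 and 2231. These 4 had adjusted p of 0.981 by edgeR, and for miR-26b-5p the log2 fold change of 2.12 was -0.06 once tags of 1 mismatch were added.

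The miRNAs of the macrophage response to LPS did not pass in LPS+AS-IV against Control. Of 12 listed, 6 were tested, 5 had a higher value and 1 a lower, and 0 passed. Their median log2 fold change was 0.64, against 0.21 over all 94. miR-155-5p, which is induced through Toll-like receptors, had 0, 26 and 0 reads in Control against 74, 225 and 0 in LPS+AS-IV, so LPS+AS-IV 3 was listed at 0 beside 2 Control libraries. Its log2 fold change was 3.51 (SE 2.54, adjusted p = 0.981 by edgeR). Without Control 2 the other Control libraries were at 0, and the fitted value of 11.15 is no measure of size. With tags of 1 mismatch added it was 0.97, and the Control reads were then 80, 167 and 198.

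miR-146a-5p, which restrains signalling from those receptors, had CPM of 40416, 24791 and 16853 in Control against 35196, 63995 and 4964 in LPS+AS-IV. The groups overlapped, with a log2 fold change of 0.34 (SE 0.65), which was -0.47 without LPS+AS-IV 2 and -0.07 without Control 3. miR-222-3p had a log2 fold change of -0.09 (SE 0.59), and miR-21-5p one of 0.14 (SE 1.48). Both changed sign when single libraries were left out.

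Among the lists for fibrosis, miR-204-5p, which the series title names, had 75, 54 and 63 reads in Control against 25, 159 and 681 in LPS+AS-IV. Its CPM was 1619, 1613 and 847 in Control against 1803, 2424 and 1360 in LPS+AS-IV, so the groups overlapped. The log2 fold change was 0.45 (SE 1.80, adjusted p = 0.981 by edgeR). It had 3, 1 and 20 reads in the LPS libraries. miR-34a-5p, a target of p53 listed as pro-fibrotic, had a log2 fold change of 1.10 (SE 0.80), which was -0.47 without LPS+AS-IV 2. No member of the pro-fibrotic list (4 tested of 7) or of the anti-fibrotic list (2 tested of 12) passed.

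The labelled cell type was checked against miRNAs of several cell types. Of 9 myeloid miRNAs, 8 were detected, with a summed CPM of 21543 to 46116 in Control against 10478 to 77455 in LPS+AS-IV. In each library the largest part of the sum was miR-146a-5p, at 16853 to 40416 CPM in Control and 4964 to 63995 in LPS+AS-IV. The member not detected was miR-142-3p. miR-223-3p, a defining miRNA of myeloid cells, had 36, 11 and 113 reads in Control against 0, 99 and 944 in LPS+AS-IV. miR-142-5p, a further one, had at most 1 read in 5 of the 6 libraries and 54 in Control 1. The lymphocyte list summed to 116757 to 154806 CPM in Control against 119941 to 235867 in LPS+AS-IV, and the erythroid list to 37514 to 48569 and 32165 to 38663. The liver and serum list, which rested mainly on miR-122-5p, summed to 1451 to 3238 CPM in Control against 5074 to 6203 in LPS+AS-IV, with no overlap. The sums of 5 further lists overlapped between the groups. The summed CPM of the endothelial list was 6870 to 12608 in Control and 4616 to 12866 in LPS+AS-IV, and that of the neural and endocrine list 1747 to 4301 and 1037 to 6924. The mesenchymal and smooth muscle list summed to 1478 to 2688 and 649 to 8248, the epithelial and mesothelial list to 26.9 to 896 and 0 to 1226, and the striated muscle list to 0 to 43.2 and 0 to 5228. The part of these other cell types in the results was not tested.

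The remaining lists held no miRNA that passed, apart from let-7a-5p and miR-3596a, described above. Of 6 tested miRNAs that restrain inflammation, 5 had a higher value and 1 a lower, with a median log2 fold change of 0.32. For the 12 tested members of the let-7 list, the median with 1 name per tag was 0.13, and that over all 94 miRNAs was also 0.13. The list included miR-3596a, miR-3596c and miR-3596d beside the let-7 miRNAs, whose targets include growth-promoting genes. The seed of miR-3596a is not that of let-7a-5p. Of 4 tested miRNAs of the miR-17-92 cluster and its paralogs, 3 had a higher value and 1 a lower, with a median by deposited names of 0.47, against 0.21 over all 94.

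**Figure D2:**
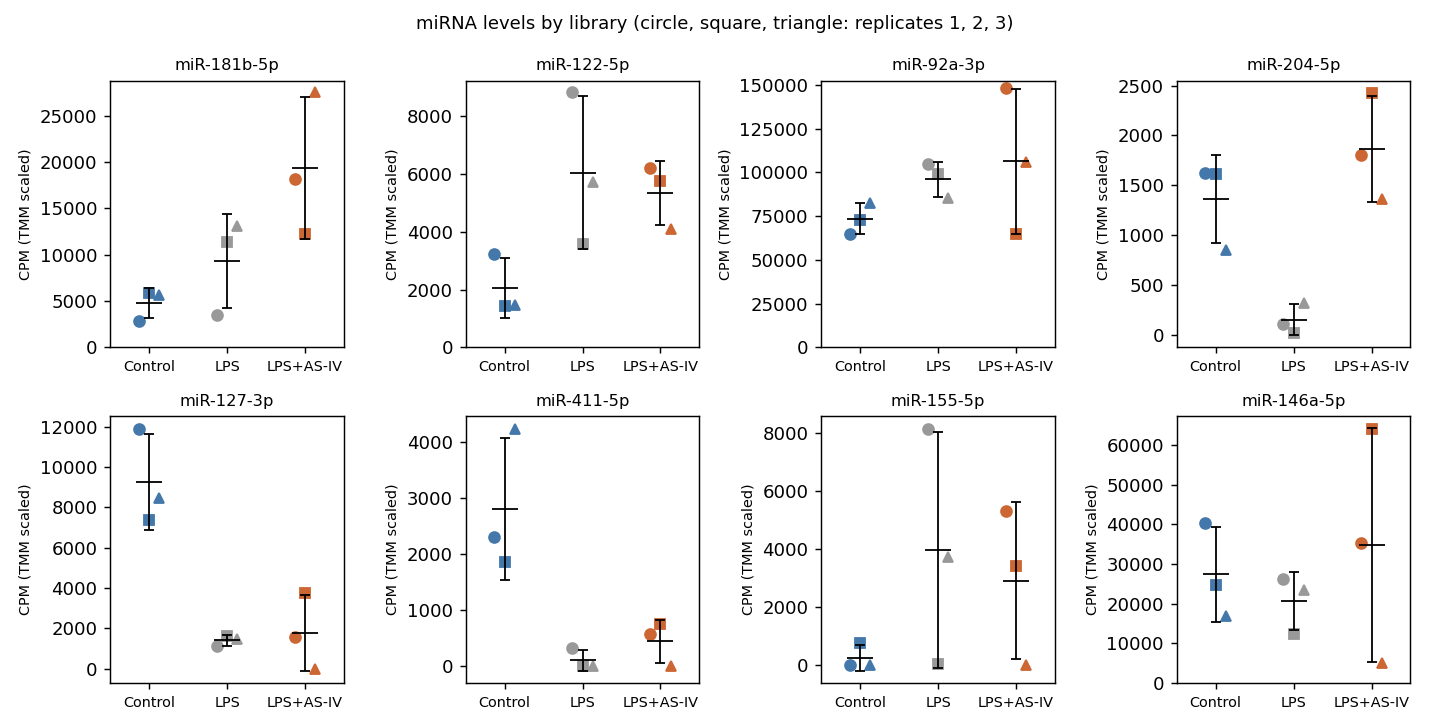
Points are the CPM (y axis, TMM scaled) of 8 miRNAs in each library of Control, LPS and LPS+AS-IV (x axis); black bars are the mean and SD of 3 libraries. The 3 LPS+AS-IV libraries sit above Control for miR-181b-5p and miR-122-5p and below it for miR-127-3p and miR-411-5p.

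Of the 10 miRNAs most abundant in Control by deposited names, miR-3596a alone passed, by its naming. miR-92a-3p, of the miR-17-92 cluster, had CPM of 64942, 72759 and 82664 in Control against 148067, 64925 and 105849 in LPS+AS-IV. Its log2 fold change was 0.53 (SE 0.29, unadjusted p = 0.0856, adjusted p = 0.836 by edgeR). miR-423-3p had a log2 fold change of 0.32 (SE 0.30), miR-191a-5p of 0.31 (SE 0.30) and let-7b-5p of 0.23 (SE 0.29). For let-7i-5p the CPM was 36746, 34796 and 35251 in Control against 35989, 39269 and 40172 in LPS+AS-IV, with overlap and a log2 fold change of 0.11 (SE 0.27). The lymphocyte miR-150-5p was at 0.05 (SE 0.38) and the erythroid miR-451-5p at -0.17 (SE 0.31). let-7b-5p, let-7i-5p, miR-150-5p and miR-451-5p changed sign when single libraries were left out. The 10 miRNAs most abundant in Control with 1 name per tag were also taken as 1 fixed set. They held 56.6%, 62.2% and 65.1% of miRNA reads in Control against 61.8%, 53.7% and 69.1% in LPS+AS-IV.

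Of 187 miRNAs detected in the 6 libraries by deposited names, 52 were in all 6. There were 21 in at least 1 LPS+AS-IV library and in no Control library, and 31 in at least 1 Control library and in no LPS+AS-IV library. Under 1 name per tag, 0 were in all 3 libraries of one group and in none of the other. miR-532-3p had 0, 0 and 105 reads in Control against 0 in LPS+AS-IV, and miR-1306-5p had 0, 14 and 64 reads in Control against 0 in LPS+AS-IV. miR-206-3p, a miRNA of skeletal muscle, had 2615 reads in LPS+AS-IV 3 and 0 in the other 5 libraries.

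Across RNA classes, assigned reads were mostly tRNA and rRNA in both groups, and 3 smaller classes did not overlap between them. With 3 libraries against 3, an exact permutation test cannot give a p under 0.1. Shares of 8 classes were compared. snRNA held 0.350%, 0.342% and 0.400% in Control against 0.112%, 0.107% and 0.234% in LPS+AS-IV. Every LPS+AS-IV library was below every Control library (exact permutation p = 0.1, two-sided, adjusted p = 0.267). The difference of means was -0.213 percentage points, and -0.254 without LPS+AS-IV 3. The LPS libraries, at 0.110%, 0.238% and 0.107%, were also below Control.

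piRNA held 2.07%, 3.60% and 2.40% in Control against 5.65%, 4.09% and 8.50% in LPS+AS-IV. The LPS libraries held 2.43%, 3.12% and 43.5%. This class follows the deposited names, and the tRNA-Val, tRNA-Gly and tRNA-Asp fragments printed above fell mainly in it. Of their reads, 90.0%, 58% and 100% carried piRNA names, so the difference is not one of piRNAs alone. The class of Y, vault, 7SK and signal recognition particle RNA held 0.103%, 0.157% and 0.179% in Control against 0.194%, 0.271% and 0.506% in LPS+AS-IV. In both classes each LPS+AS-IV library was above each Control library (exact permutation p = 0.1, adjusted p = 0.267 for both). Without LPS+AS-IV 3 the difference fell from 3.39 to 2.18 percentage points for piRNA and from 0.177 to 0.0856 for the Y RNA class. With tRNA and rRNA left out of the denominator, an alternative added after the data were seen, both overlapped (exact permutation p = 0.4 for piRNA and 0.3 for the Y RNA class), while snRNA did not (exact permutation p = 0.1). With rRNA alone left out, the Y RNA class overlapped (exact permutation p = 0.2). The other 5 classes overlapped. Mature miRNA held 0.692% ± 0.200 in Control against 3.03% ± 4.46 in LPS+AS-IV (mean ± SD, n = 3 each), and the difference changed sign without LPS+AS-IV 3, where the share was 8.16% (95% Wilson interval 8.14 to 8.18).

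**Figure D3:**
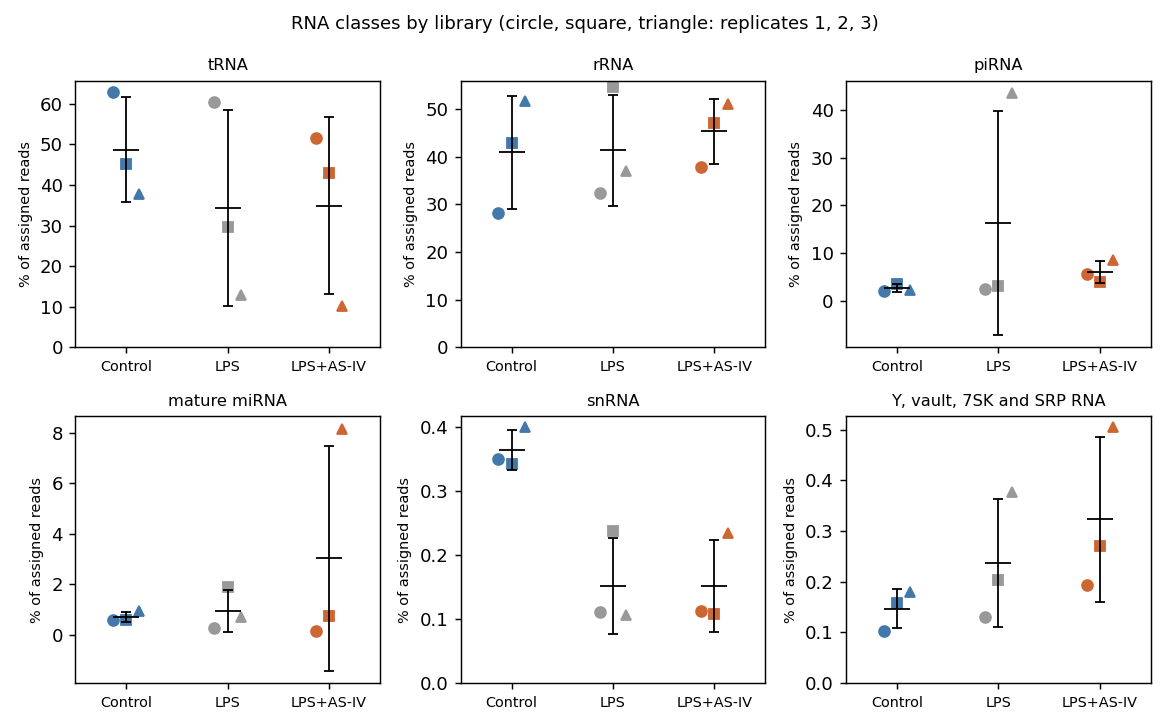
Points are the percent of assigned reads (y axis) in 6 RNA classes for each library of Control, LPS and LPS+AS-IV (x axis); black bars are the mean and SD of 3 libraries. The snRNA points of LPS+AS-IV lie below those of Control, the piRNA and Y RNA class points lie above them, and the tRNA, rRNA and miRNA points overlap. Classes follow the deposited names, so the piRNA class includes tRNA fragments.

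U1 snRNA, which recognises the 5′ splice site, was the most abundant snRNA of Control. Its level in RPM was 2469, 1827 and 2810 in Control against 657, 587 and 772 in LPS+AS-IV. Each LPS+AS-IV library was below each Control library, and the Control mean was 3.52-fold higher. Over 1257 RNA names of all classes, edgeR gave U1 a log2 fold change of -1.96 (SE 0.73, unadjusted p = 0.0122, adjusted p = 0.729), so it did not pass. Without LPS+AS-IV 3 it was -1.65 (unadjusted p = 0.0358, adjusted p = 0.949). The LPS libraries were at 601, 1951 and 458 RPM, and LPS 2 lay within the range of Control.

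U1 was also lower relative to other RNAs of the same library. Outside tRNA and rRNA it held 2.81%, 1.53% and 2.66% of reads in Control against 0.612%, 0.584% and 0.199% in LPS+AS-IV. Per Y RNA read it was 2.69, 1.71 and 1.71 in Control against 0.437, 0.258 and 0.182 in LPS+AS-IV. Both had an exact permutation p of 0.1 with no overlap. Per mature miRNA read, the values were 0.423, 0.321 and 0.304 in Control against 0.406, 0.0776 and 0.00946 in LPS+AS-IV, and the groups overlapped (exact permutation p = 0.3).

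The U1 tags that hold the 18 shared bases were at 1484, 967 and 1883 RPM in Control against 218, 343 and 177 in LPS+AS-IV, a 5.88-fold higher mean in Control. The remaining U1 tags were at 984, 860 and 927 RPM in Control against 439, 245 and 595 in LPS+AS-IV, a 2.17-fold higher mean in Control. Neither group of tags overlapped between the conditions. They were chosen after the values were seen, and 12 such comparisons of fragment groups had a smallest adjusted p of 0.133 by exact permutation tests.

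U4 snRNA, a further spliceosomal RNA, was at 245, 533 and 70.2 RPM in Control against 61.0, 27.0 and 0.896 in LPS+AS-IV. The groups did not overlap, and the log2 fold change was -2.87 (SE 1.15, unadjusted p = 0.0189, adjusted p = 0.729 by edgeR). With single libraries left out it ranged from -4.15 without LPS+AS-IV 1 to -2.31 without Control 2. The LPS libraries had U4 at 8.28, 35.6 and 39.4 RPM, each also below every Control library. U2, U5 and U6 snRNA overlapped. U6, the second most abundant snRNA of Control and part of the catalytic core of the spliceosome, was at 745, 927 and 1050 RPM in Control against 372, 388 and 1229 in LPS+AS-IV (log2 fold change -0.94, SE 0.72). The source of the U6 tags was not tested. U2 was at 34.8, 114 and 68.7 RPM in Control against 25.5, 62.3 and 313 in LPS+AS-IV. Of 101 tested snRNA tags, 39 did not overlap and were lower in LPS+AS-IV (38.6%) and 0 were higher, against 9.42% lower and 1.11% higher over all 17733 tested tags. The snRNA tags come from few RNAs and share their reads' source. All tags counted here had passed the filter on low counts.

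The tRNA-Gly fragment was at 200.2, 157 and 297 RPM in Control against 639, 775 and 1373 in LPS+AS-IV, with a 4.26-fold higher mean. The tRNA-Asp fragment was at 63.8, 66.1 and 57.9 RPM in Control against 159, 189 and 1997 in LPS+AS-IV. In both, every LPS+AS-IV library was above every Control library (exact permutation p = 0.1 for each). The ratio of the means for tRNA-Asp was 12.5 and rested on LPS+AS-IV 3: its log2 was 3.64 with that library and 1.47 without it. In the LPS libraries the tRNA-Gly fragment was at 233, 131 and 3555 RPM and the tRNA-Asp fragment at 121.5, 140 and 4035 RPM.

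The tRNA-Val fragment overlapped between the groups, at 5970, 7126 and 5453 RPM in Control against 4626, 7930 and 20606 in LPS+AS-IV (exact permutation p = 0.6). Its log2 ratio of means was 0.84, and 0.02 without LPS+AS-IV 3. A group of tags named rno_piR_003324 also overlapped, at 66.7, 1336 and 55.3 RPM in Control against 379, 68.7 and 0 in LPS+AS-IV (exact permutation p = 0.7). The Y RNA fragment was at 537, 449 and 764 RPM in Control against 894, 1529 and 1335 in LPS+AS-IV, with no overlap and a 2.15-fold higher mean (exact permutation p = 0.1). With tRNA and rRNA left out of the denominator it overlapped (exact permutation p = 0.5). A second group of Y RNA tags was at 192, 290.1 and 647 RPM in Control against 297, 346 and 2145 in LPS+AS-IV, with overlap (exact permutation p = 0.5). All Y RNA together was at 918, 1070 and 1640 RPM in Control against 1502, 2276 and 4235 in LPS+AS-IV, also with overlap. As a share of reads outside tRNA and rRNA, all Y RNA together overlapped between the groups, at 1.16% ± 0.346 in Control against 1.59% ± 0.606 in LPS+AS-IV (mean ± SD, n = 3 each).

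**Figure D4:**
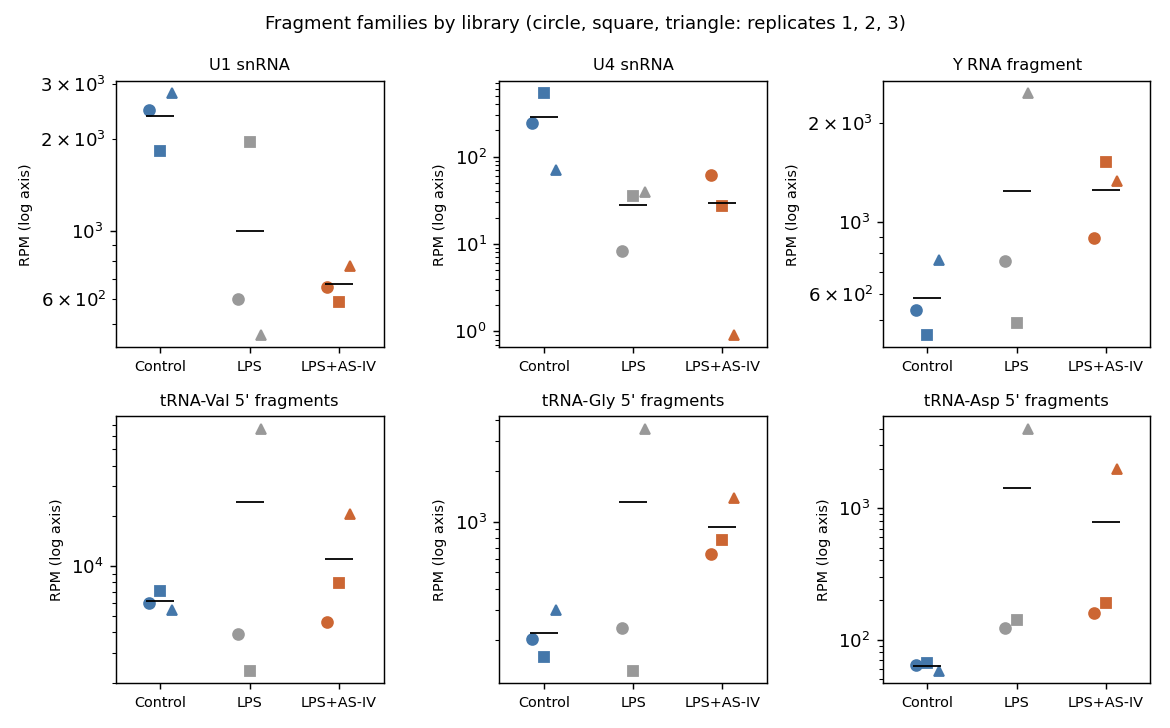
Points are RPM (y axis, log scale) of U1 and U4 snRNA, the Y RNA fragment and 3 tRNA fragments in each library of Control, LPS and LPS+AS-IV (x axis); black bars are means of 3 libraries. U1 and U4 of LPS+AS-IV lie below Control, the Y RNA, tRNA-Gly and tRNA-Asp fragments lie above it, and the tRNA-Val fragment overlaps.

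Over all RNA names, edgeR called 0 of 1257 (0%), with 48 higher (3.82%) and 38 lower (3.02%) at an unadjusted p under 0.05, and DESeq2 called 15. Groups did not overlap for 35 names higher in LPS+AS-IV (2.78%) and 92 lower (7.32%). The name with the smallest p was the Rfam family RF00291, at 14, 144 and 59 reads in Control against 399, 54 and 45132 in LPS+AS-IV. Its groups overlapped, and its high value lay in LPS+AS-IV 3. The family RF01550, next among the higher ones, was at 1.11, 0.367 and 7.79 RPM in Control against 114, 12.5 and 133 in LPS+AS-IV, with no overlap (log2 fold change 4.67, SE 1.37, adjusted p = 0.729 by edgeR). In the LPS libraries it was at 11.6, 167 and 65.9 RPM. The name with the smallest p among the lower ones was rno_piR_006383, at 52, 384 and 0 reads in Control against 0 in each LPS+AS-IV library. Over single tags, edgeR called 0 of 17733 (0%), with 177 higher (0.998%) and 1360 lower (7.67%) at an unadjusted p under 0.05, and DESeq2 called 541. The balance of directions over tags depended on the filter on low counts. With no filter, 1549 of 485728 tags were higher and 657 lower at that threshold of edgeR. Over RNA names, 79 of 2468 were then higher and 40 lower. The part of the filter in these counts was not tested.

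Tag lengths did not separate the groups. Tags of 33 to 38 nt, the length of long tRNA fragments, held 72.7%, 61.8% and 48.7% of reads in Control against 71.9%, 54.1% and 24.9% in LPS+AS-IV. Tags of 20 to 24 nt, a band that includes the length of miRNAs, held 4.44%, 4.70% and 17.3% in Control against 2.21%, 20.04% and 30.6% in LPS+AS-IV. In Control 3 and LPS+AS-IV 2 the band rested mainly on a single 24 nt tag of 5.8S rRNA. That tag was at 0, 0 and 108275 RPM in Control against 11179, 137692 and 120 in LPS+AS-IV. Over 22 comparisons of length bands, within all reads and within single classes, 0 had groups that did not overlap, and the smallest exact permutation p was 0.2 (adjusted p = 1). LPS+AS-IV 3 was the lowest library for tags of 33 to 38 nt and the highest for 20 to 24 nt. In mature miRNA tags, 20 to 24 nt held 96.9% in Control against 95.3% in LPS+AS-IV on average.

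**Figure D5:**
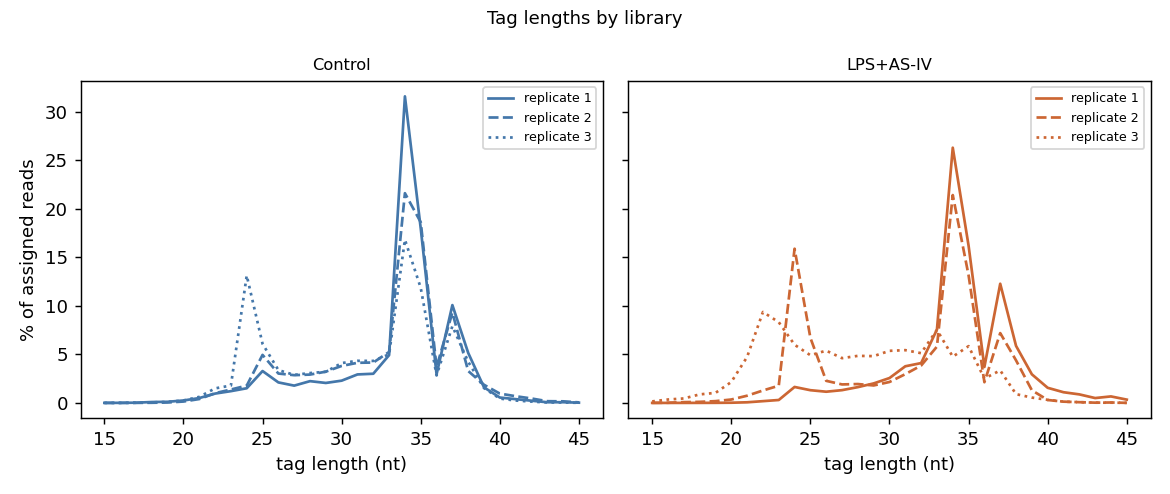
Lines give the percent of assigned reads (y axis) at each tag length in nt (x axis) for the 3 libraries of Control (left) and of LPS+AS-IV (right). Summed over 33 to 38 nt, LPS+AS-IV 3 is the lowest library, with 24.9% of its reads. Its line is not the lowest at each of these lengths: at 33 nt it is at 7.53%, above each Control library.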

How the data were processed

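Small RNA of macrophage exosomes was sequenced on a BGISEQ-500. The deposited table held a whole-number read count for each of 201 mature miRNAs, and the deposited library files held a count and 1 assignment per tag of 15 to 45 nt, per the file headers. These files also gave a score per tag, per the file headers, which entered no test. Per the submitters' processing notes, Bowtie2 and Rnor_6.0 were used, in a role that is not stated. For adapter trimming, the miRBase release and the Rfam and piRNA naming, the tool was not given in the sources used here. Each tag sequence was given the name with most reads over the 9 libraries.

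edgeR 4.0.16 (R 4.3.3) fitted the counts of the 9 libraries together by quasi-likelihood, with TMM factors, filterByExpr defaults, group as the term and Benjamini-Hochberg adjustment at 0.05. DESeq2 1.42.0 was an alternative. Each SE was the absolute log2 fold change divided by the root of its F value. The biological coefficient of variation of the table was 1.42. Shares, fragment groups and ratios were tested by two-sided exact permutation. A count of 0 allowed up to 3 reads, or 5.99 to 216 CPM by library. PCR copies were not told apart by molecular identifiers, so this covers counting error only. The fits were tested on simulated data, with recovery of known changes required only at a spread far below that of these data. Recovery at the spread of these data is not given here.

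The members and lists were chosen with earlier results of these data known. Named miRNAs were the 8 per direction with the smallest unadjusted p, the 10 most abundant in Control, up to 3 members of each of 17 lists by mean CPM, and miR-204-5p. Named RNA names were the 5 per direction with the smallest p. The sources of other tags were not analysed here. Further fragment groups are not reported here.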

Additional observations from a re-analysis of the deposited data

How the results depend on the processing

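The 2 miRNAs called by deposited names became 0 with 1 name per tag. Under that naming, leaving out single libraries gave 0 to 1 calls, and the 1 was miR-181b-5p without LPS+AS-IV 2. Over RNA names, the count of 0 became 1 with library totals, 4 with no filter and 15 with DESeq2, and ranged from 0 to 5 with single libraries left out. Over tags it became 1 with no filter and 541 with DESeq2, and ranged from 0 to 1 with single libraries left out. The causes were not tested. Library totals in place of TMM shifted the median over the 94 miRNAs from 0.21 to 0.02 (log2). Counting each distinct tag once left too few miRNAs to be fitted.

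Correlations of same-numbered deviations were -0.018, -0.19 and -0.10 over miRNAs and -0.048, -0.043 and 0.14 over RNA names. With 3 libraries per group, these values cannot decide whether replicate numbers pair the samples. With the replicate block, the 4 counts were 2, 0, 0 and 0, as without it, and the log2 fold changes of miR-223-3p and miR-150-5p became -0.83 and -0.038. The signed differences of shares kept their values, with a smallest exact p of 0.25 for 3 pairs.

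Differences of shares, in percentage points, ranged as follows with single libraries left out: rRNA from -1.88 to 9.80, mature miRNA from -0.233 to 3.77, 1-mismatch hairpin tags from -0.190 to 2.87, other Rfam from -1.63 to 3.79, 25 to 32 nt from -6.01 to 5.32, 33 to 38 nt from -21.5 to 1.97, and 39 to 45 nt from -1.74 to 1.69. By distinct tags, rRNA became -0.282 and 39 to 45 nt became -1.83. With tRNA and rRNA left out of the denominator, which was chosen after seeing the data, other Rfam became -16.6, 25 to 32 nt became -7.37, 33 to 38 nt became 2.09 and the log2 ratio of the tRNA-Val fragment became -0.032.

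Log2 fold changes ranged, with single libraries left out, from -0.43 to 0.39 for miR-181a-5p, -2.77 to 9.47 for miR-323-3p, -0.47 to 0.76 for miR-146a-5p, -0.42 to 0.11 for miR-222-3p, -1.10 to 0.47 for miR-21-5p, -0.28 to 1.04 for miR-223-3p, -0.47 to 1.49 for miR-34a-5p, -0.031 to 0.43 for let-7b-5p, -0.35 to 0.48 for miR-150-5p, -0.015 to 0.24 for let-7i-5p and -0.44 to 0.077 for miR-451-5p. With 1 name per tag, miR-3596a became 0.41, miR-181a-5p -0.012 and miR-150-5p -0.051. With library totals, miR-181a-5p became -0.10, miR-21-5p -0.012, let-7i-5p -0.078 and miR-150-5p -0.13. With the 6 libraries alone, miR-181a-5p became -0.060, let-7i-5p -0.031 and miR-150-5p -0.10. With the second deposited column, miR-181a-5p became -0.20, miR-150-5p -0.069, let-7i-5p -0.0045 and let-7b-5p -0.0010. With tags of 1 mismatch added, miR-181c-5p became 0.084, miR-26b-5p -0.064, miR-21-5p -0.31, miR-223-3p -0.72 and miR-150-5p -0.16.

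The depth of the miRNA counts, from 15426 to 546599 reads, limits rare miRNAs most. At a count of 0, LPS+AS-IV 1 allows 216 CPM and LPS+AS-IV 3 allows 5.99. Both limits cover counting error only, so they do not rank the libraries by sensitivity. On a log scale, reads per tag peaked at 38, 38 and 76 for Control, against 108, 54 and 609 across the LPS+AS-IV replicates. Whether these peaks reflect PCR copies was not tested.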
